A study of Mus musculus with 4 samples.

Results

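The insulin-like growth factor genes measured here were the ligand genes Igf1 and Igf2, the receptor gene Igf1r and the binding protein genes Igfbp2, Igfbp3, Igfbp4, Igfbp5, Igfbp6 and Igfbp7. They were chosen by name, as every probe whose platform annotation gives one of these 9 symbols, and 16 of the 46632 probes on the array were found in this way. The array named 17711 genes in all. Igf1r had 4 probes, Igfbp7 had 3, Igfbp4 and Igfbp5 had 2 each, and the 5 other genes had 1 each. The samples were tumours of B16-F10-luc-G5 cells, mouse melanoma cells of the B16 line that carry luciferase, injected under the abdominal skin of 2 VAP-1 knockout mice (VAP-1 -/-, replicates 1 and 2) and 2 wild-type mice (replicates 2 and 3) and dissected after 10 days. The same cell line was injected in both groups, so the groups differ by the host's VAP-1 (vascular adhesion protein 1, an amine oxidase encoded by Aoc3). The sources used here do not give strain, age, sex or the deleted part of the gene. Each array held the RNA of 1 whole tumour, host cells included, and in such bulk RNA fewer cells of a type cannot be told apart from less RNA per cell.

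Insulin-like growth factors 1 and 2 are secreted peptides that activate the receptor tyrosine kinase encoded by Igf1r, which signals through insulin receptor substrates and phosphoinositide 3-kinase to cell growth and survival. In tissue fluid the ligands are held by a family of secreted binding proteins, which carry them, keep them from the receptor or, once cut by proteases, release them. In tumours much of the ligand and binding protein can come from stromal cells such as fibroblasts, macrophages and endothelial cells, and melanoma cells can carry the receptor.

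Values are log2 of the authors' quantile-normalized intensity, differences are knockout minus wild type on that scale, and SE and 95% intervals come from a limma fit over the 27979 probes whose mean lay above the 40th percentile of all probes (5.88 on the log2 scale). The lowest value on any array was 5.13, so probes near 5.88 lie close to the background, where differences are compressed. Median unnormalized intensity was 64.81 and 68.27 in knockout replicates 1 and 2, against 63.33 and 55.30 in wild-type replicates 2 and 3. The knockout arrays were closer to each other (SD of the log2 difference over tested probes 0.258) than the wild-type arrays (0.416). The brighter Aoc3 probe read 7.21 and 7.07 in the knockout, against 7.96 and 7.09 in wild type, and wild-type replicate 3 lay within the knockout range, so its signal did not separate the genotypes. Its place relative to the deletion is not stated. All 9 melanocyte markers of the tumour line were above the filter level, and they summed to 111033 and 105751 in knockout tumours, against 97780 and 95138 in wild type. Their median difference was 0.07. Sox10 (0.84), Tyrp1 (0.56) and Pmel (0.23) were higher in the knockout without overlap, Oca2 (-0.62) and Tyr (-0.52) were lower without overlap, and the others overlapped. Over all tested probes 23.6% were higher without overlap and 25.6% lower.

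No member of the family passed the threshold. limma called 0 of the 27979 tested probes at an adjusted p under 0.05 (0%), and 4568 had an unadjusted p under 0.05 (16.3%). Of the 16 family probes 14 were tested, and their adjusted p-values lay between 0.265 and 0.946. At an unadjusted p under 0.05 there were 2 of the 14 (14.3%), 1 probe each of Igfbp3 and Igfbp4, and both were lower in the knockout, a direction in which 7.05% of all tested probes had such a p. The higher direction held 0 of the 14, against 9.27% of all tested probes. Groups did not overlap at 5 of the 14 probes (35.7%), against 49.2% of all tested probes. Of these 2 were higher in the knockout, where 23.6% of all tested probes were, and 3 were lower, where 25.6% were. The median difference was 0.02 over the 14 probes and -0.02 over all tested probes, and the median absolute difference was 0.21 against 0.17. At 9 of the 14 probes the 2 wild-type tumours were farther apart than the 2 group means.

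**Figure D1:**
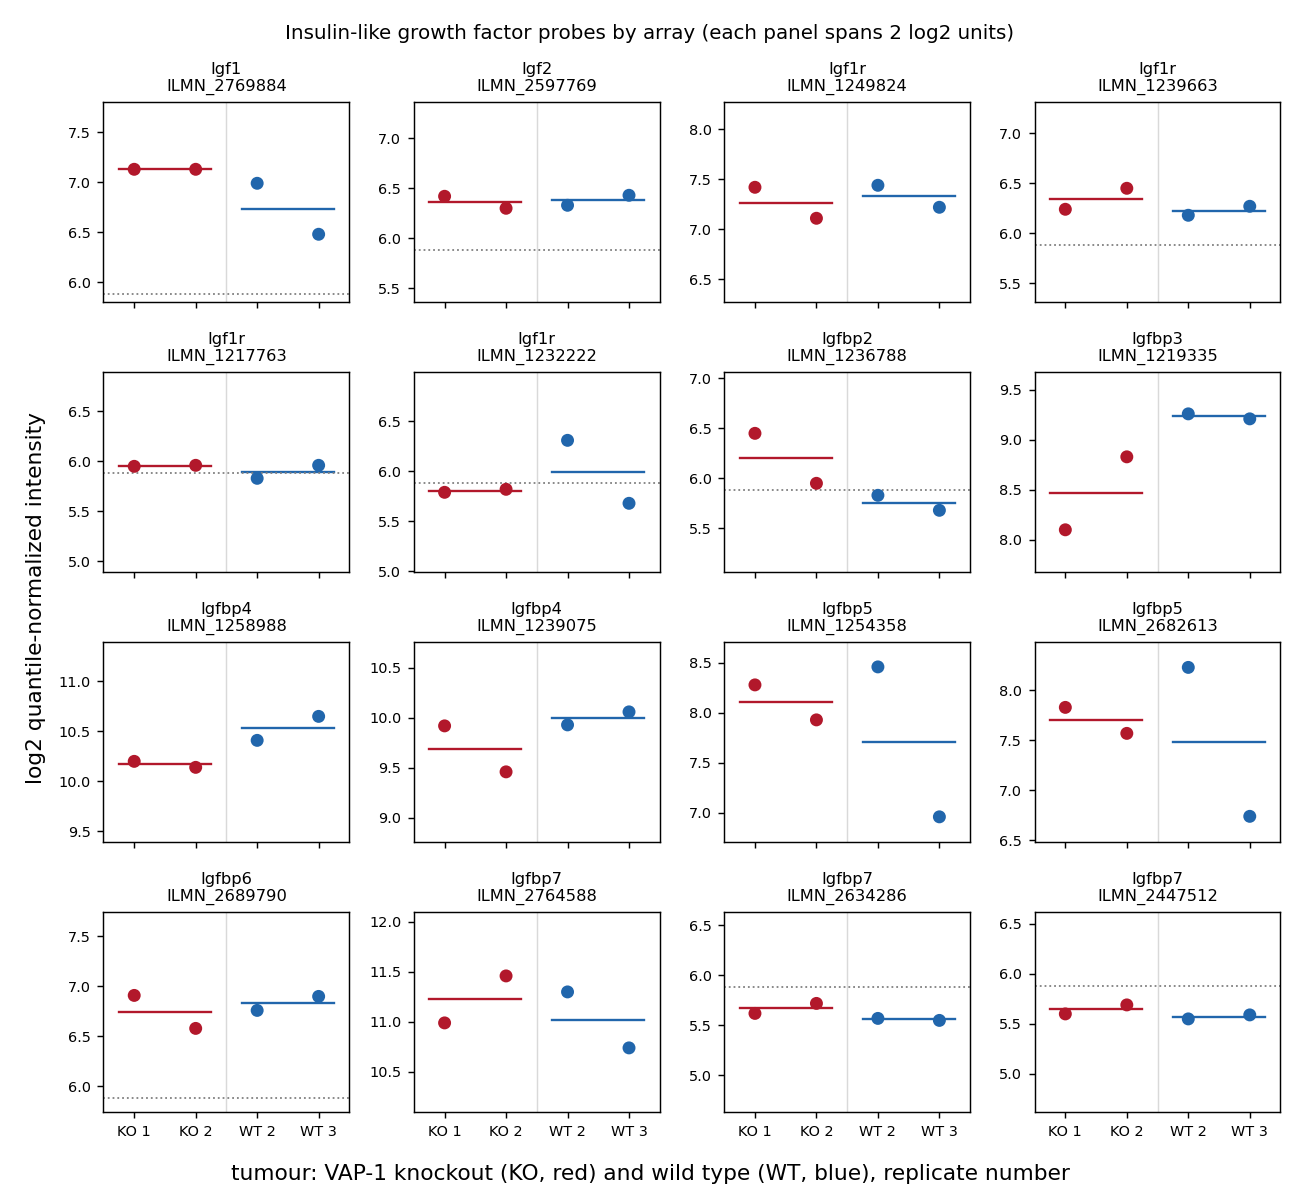
Log2 quantile-normalized intensity (y axis, every panel spanning 2 log2 units) of the 16 family probes in the 2 VAP-1 knockout tumours (red, left) and the 2 wild-type tumours (blue, right). Points are single arrays, horizontal lines are group means and dotted lines mark the filter level of 5.88. Igfbp3 was lower on both knockout arrays, and both Igfbp5 probes were lowest in wild-type replicate 3.

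The promoters of the binding protein genes on which the results turn are shown first: Igfbp3 and Igfbp4, the genes with the lower probes, and Igfbp5, the gene with the widest spread between wild-type tumours. Each is the 250 bases before the transcription start from RefSeq on GRCm38.p6, 5′ to 3′ on the gene's own strand, and capitals mark matches to the searched motifs. Igfbp3 (chr11:7213924-7214173, minus strand), Igfbp4 (chr11:99040994-99041243, plus strand) and Igfbp5 (chr1:72874866-72875115, minus strand) read as follows.
Igfbp3: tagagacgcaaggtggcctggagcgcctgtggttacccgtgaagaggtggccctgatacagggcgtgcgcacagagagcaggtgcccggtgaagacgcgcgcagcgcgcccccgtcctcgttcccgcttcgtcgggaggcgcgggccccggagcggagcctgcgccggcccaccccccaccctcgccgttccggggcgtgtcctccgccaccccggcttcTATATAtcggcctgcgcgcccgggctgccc
Igfbp4: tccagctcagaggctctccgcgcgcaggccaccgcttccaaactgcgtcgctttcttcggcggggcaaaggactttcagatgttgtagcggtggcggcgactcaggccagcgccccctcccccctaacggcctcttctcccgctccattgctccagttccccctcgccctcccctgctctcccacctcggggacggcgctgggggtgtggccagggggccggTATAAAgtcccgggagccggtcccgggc
Igfbp5: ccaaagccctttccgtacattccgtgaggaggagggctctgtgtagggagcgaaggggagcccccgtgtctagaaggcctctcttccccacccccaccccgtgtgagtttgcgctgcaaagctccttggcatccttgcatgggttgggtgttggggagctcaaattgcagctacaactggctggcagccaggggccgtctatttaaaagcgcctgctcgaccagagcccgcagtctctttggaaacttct
The motifs were TATAAA and TATATA (forms of the TATA box), GGGCGG (the GC box), ACGTG (the core of the hypoxia response element and of the E-box CACGTG) and CCAAT, each searched on both strands, and TATATA is its own reverse complement. In the Igfbp3 window the 1 match was TATATA, starting 30 bases before the transcription start, and in the Igfbp4 window it was TATAAA, starting 28 bases before it. The Igfbp5 window held 0 matches, which says only that these letters are not in it. TATAAA was in 12.4% of the 32851 promoter windows of the same length, TATATA in 5.2%, GGGCGG in 32.7%, ACGTG in 16.6% and CCAAT in 33.8%. All 9 genes had a window in the table, 13 windows in all, and of these 2 held TATAAA (Igfbp4 and Igfbp6), 1 TATATA (Igfbp3), 5 GGGCGG, 3 ACGTG and 3 CCAAT. The G and C content was 73.2% for Igfbp3, 69.2% for Igfbp4 and 58.8% for Igfbp5. By RefSeq's order of coding genes, Igfbp2 and Igfbp5 are neighbours on chromosome 1, Igfbp3 lies beside Igfbp1 on chromosome 11, and Igf2 lies beside the insulin gene Ins2 on chromosome 7.

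Of the ligands, Igf1 was slightly higher in the knockout tumours and Igf2 was level, and neither passed. Igf1, the growth hormone-responsive ligand that stromal cells also make, read 7.13 in both knockout tumours, against 6.99 and 6.48 in wild-type replicates 2 and 3. The groups did not overlap, but wild-type replicate 2 lay nearer to the knockout tumours than to wild-type replicate 3. The difference was 0.40 ± 0.20 (SE, n = 2 each, 95% interval -0.12 to 0.92, limma adjusted p = 0.416). It was 0.14 without wild-type replicate 3, 0.65 without wild-type replicate 2 and 0.66 when arrays were centred on their median. Igf2, the imprinted ligand of fetal growth, read 6.42 and 6.30 in knockout tumours, against 6.33 and 6.43 in wild type. Its values crossed between the groups, and the difference was -0.02 ± 0.12 (95% interval -0.34 to 0.29). The Igf2 probe was dim on all 4 arrays, where differences are compressed.

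Macrophages are a known source of Igf1, and of the 7 macrophage markers on the array 6 were tested (Cd163 was below the filter level), with a median difference of 0.07 and 0 higher and 1 lower at an unadjusted p under 0.05. Over all tested probes 9.27% were higher at such a p and 7.05% lower. Without regard to p, C1qb (0.30) and Aif1 (0.10) were higher in the knockout without overlap, and C1qa (-0.45) and Adgre1 (-0.29) lower. Such separation held for 23.6% of all tested probes in the higher direction and 25.6% in the lower. The summed intensity of the markers was 2906 and 2996 in the knockout, against 2575 and 2730 in wild type. The part of macrophages in the Igf1 values was not tested.

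At none of its 4 probes did the receptor gene Igf1r differ by more than the wider of the 2 gaps between replicates of a group. At the brightest, ILMN_1249824, it read 7.42 and 7.11 in knockout tumours, against 7.44 and 7.22 in wild type, and the groups overlapped. The difference was -0.06 ± 0.16 (SE, n = 2 each, 95% interval -0.49 to 0.37, limma adjusted p = 0.884), and it was 0.25 with median centring and 0.05 with 75th percentile centring. The 3 dimmer probes differed by 0.12 ± 0.13, 0.06 ± 0.12 and -0.19 ± 0.23. The last of these, ILMN_1232222, read 6.31 in wild-type replicate 2 and 5.68 in wild-type replicate 3, with both knockout values (5.79 and 5.82) between them.

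Among the binding proteins, Igfbp3 had the widest gap between the groups and was lower in both knockout tumours. Igfbp3, the carrier of most circulating ligand in a complex with the acid-labile subunit, read 8.10 and 8.83 in knockout replicates 1 and 2, against 9.26 and 9.21 in wild-type replicates 2 and 3. The wild-type tumours lay 0.05 apart and the knockout tumours 0.73 apart, and both knockout values were below both wild-type values. The mean was 8.47 ± 0.52 in the knockout and 9.23 ± 0.04 in wild type (SD, n = 2 each), which is 1.70-fold lower, a difference of -0.77 ± 0.26 (SE, 95% interval -1.45 to -0.08, limma unadjusted p = 0.0355, adjusted p = 0.265). Knockout replicate 1 carried most of it: leaving it out gave a difference of -0.40 (unadjusted p = 0.0925), and leaving out knockout replicate 2 gave -1.13 (unadjusted p = 0.00461, adjusted p = 0.360). Before normalization the order was not the same, since Igfbp3 intensity was 281.5 and 618.4 in knockout replicates 1 and 2, against 460.9 and 535.2 in wild type. With median centring the difference was -0.42 (unadjusted p = 0.366) and with 75th percentile centring -0.62 (unadjusted p = 0.153).

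Igfbp4, whose protein holds ligand away from the receptor until the protease PAPP-A cuts it, was lower in the knockout at both probes after quantile normalization. At ILMN_1258988 it read 10.20 and 10.14 in knockout tumours, against 10.41 and 10.65 in wild type. The groups did not overlap, and the gap between the nearest tumours was smaller than that between the wild-type tumours. The mean was 10.17 ± 0.04 in the knockout and 10.53 ± 0.17 in wild type (SD, n = 2 each), a difference of -0.36 ± 0.14 (SE, 95% interval -0.72 to -0.0007, limma unadjusted p = 0.0497, adjusted p = 0.305). The second probe, ILMN_1239075, read 9.92 and 9.46 in the knockout, against 9.93 and 10.06 in wild type, so knockout replicate 1 was at the level of wild-type replicate 2. Its difference was -0.31 ± 0.19 (adjusted p = 0.510), with -0.08 on leaving out knockout replicate 2 and -0.54 on leaving out knockout replicate 1. With median centring the Igfbp4 differences were -0.18 and -0.07 (limma unadjusted p = 0.609 and 0.783). With a trended robust prior the limma unadjusted p at ILMN_1258988 was 0.129. Before normalization the groups overlapped at both probes. Intensity was 1111.2 and 1489.5 in knockout replicates 1 and 2 at ILMN_1258988, against 1049.7 and 1604.2 in wild-type replicates 2 and 3. At ILMN_1239075 it was 925.8 and 950.4, against 750.3 and 1030.1.

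Endothelial and mural cell markers lay on both sides of 0, and none passed after adjustment. The lists were chosen with earlier results of these data known, so their counts beside all tested probes are descriptions. Of 9 endothelial markers, all tested, 4 were lower at an unadjusted p under 0.05 (7.05% of all tested probes were) and 0 higher (9.27% were), with a median difference of -0.36. Without regard to p, 5 were lower in the knockout without overlap (25.6% of all tested probes were). Higher without overlap were 3, Egfl7 (0.27), Tek (0.11) and Tie1 (0.03), against 23.6% of all tested probes. The summed intensity of the endothelial markers was 3864 and 4057 in the knockout, against 4649 and 4529 in wild type. Of 7 pericyte and smooth muscle markers 6 were tested, with 2 lower and 0 higher at an unadjusted p under 0.05, a median of -0.39 and summed intensities of 2334 and 2875 in the knockout, against 4193 and 3909 in wild type. Myh11 of this list was higher without overlap (0.24), and Cnn1 was below the filter level. With median centring 0 markers of either list were lower at such a p, with medians of -0.06 and -0.22, as lower probes over the whole table dropped to 123, against 1973. With 75th percentile centring 1 endothelial and 3 pericyte and smooth muscle markers were lower at such a p, with medians of -0.26 and -0.42. Lower probes over the whole table then numbered 1661. The part of these cells in the Igfbp3 and Igfbp4 values was not tested.

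Igfbp5 and Igfbp7 varied more between tumours of 1 genotype than between genotypes. Igfbp5, a matrix-binding member of the family, read 8.28 and 7.93 in knockout tumours at ILMN_1254358, against 8.46 and 6.96 in wild-type replicates 2 and 3. Its second probe, ILMN_2682613, read 7.83 and 7.57 in the knockout, against 8.23 and 6.74 in wild type. Both probes gave the same order of the 4 tumours, with wild-type replicate 2 highest and wild-type replicate 3 lowest, and the wild-type tumours were 1.50 and 1.49 apart. The differences were 0.40 ± 0.51 and 0.22 ± 0.51 (SE, n = 2 each, limma adjusted p = 0.756 and 0.869). Wild-type replicates set the sign: without wild-type replicate 3 the differences were -0.35 and -0.53, and without wild-type replicate 2 they were 1.15 and 0.96. Of 9 fibroblast markers, all tested, 4 were lowest in wild-type replicate 3, as Igfbp5 was, among them the collagen genes Col1a1 (11.25 and 9.90 in the knockout, against 9.99 and 8.31 in wild type), Col3a1 and Col1a2. Col1a2, at 6.28 and 6.65 in the knockout, against 6.86 and 6.24 in wild type, was also highest in wild-type replicate 2. So was Fbln1, at 10.68 and 10.57 in the knockout, against 11.14 and 11.02 in wild type, without overlap. Fbln1, Dcn, Dpt and Pdgfra were lowest in knockout replicate 2, and Fap in wild-type replicate 2. The summed intensity of the list was 9200 and 4858 in knockout replicates 1 and 2, against 6482 and 4993 in wild-type replicates 2 and 3. Of 6 tested adipocyte markers 5 were also lowest in wild-type replicate 3. In other lists that tumour was lowest for 3 of 9 keratinocyte, 2 of 10 skeletal muscle, 3 of 9 endothelial and 3 of 9 melanocyte markers. It was lowest for 2 of 6 pericyte and smooth muscle, 1 of 6 macrophage and 1 of 5 erythroid markers. The share over all tested probes was not counted. The part of fibroblasts and adipocytes in the Igfbp5 values was not tested.

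Igfbp7, a related secreted protein of vessel walls with weak affinity for the ligands, was bright at ILMN_2764588, with 10.99 and 11.46 in knockout tumours, against 11.30 and 10.74 in wild type. The groups overlapped, and the difference was 0.20 ± 0.26 (SE, n = 2 each, 95% interval -0.49 to 0.89). Its 2 other probes, ILMN_2634286 and ILMN_2447512, lay between 5.55 and 5.72 on all 4 arrays, below the filter level and 5.14 to 5.76 below the bright probe, and they were not tested. Probe sequences were not used here, so which part of the gene each probe reads cannot be given.

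Igfbp2 and Igfbp6 were dim. Igfbp2, a binding protein of fetal and many tumour tissues, read 6.45 and 5.95 in knockout replicates 1 and 2, against 5.83 and 5.68 in wild type. Both wild-type values lay below the filter level, so the probe passed the filter through the knockout tumours and its lack of overlap is given as a description. The difference was 0.44 ± 0.20 (SE, n = 2 each, 95% interval -0.09 to 0.97, limma adjusted p = 0.378), and 0.19 without knockout replicate 1. By summed intensity that tumour also had the most skin and muscle signal. The 9 keratinocyte markers on the array, all tested, summed to 17792 and 7364 in knockout replicates 1 and 2, against 6807 and 5802 in wild type. Dsg3 of this list went the other way, at 7.56 and 7.54 in the knockout, against 8.20 and 7.78 in wild type. The 10 skeletal muscle markers, all tested, summed to 10147 and 5545 in the knockout, against 4413 and 4068 in wild type. Of these Myh1 was lowest in knockout replicate 1 (5.68), and Myh4 was lower in the knockout without overlap (-0.08). The part of these tissues in the Igfbp2 and Igfbp3 values was not tested. Igfbp6, which prefers the ligand encoded by Igf2, read 6.91 and 6.58 in knockout tumours, against 6.76 and 6.90 in wild type, with overlapping groups and a difference of -0.09 ± 0.16 that was 0.09 with median centring.

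**Figure D2:**
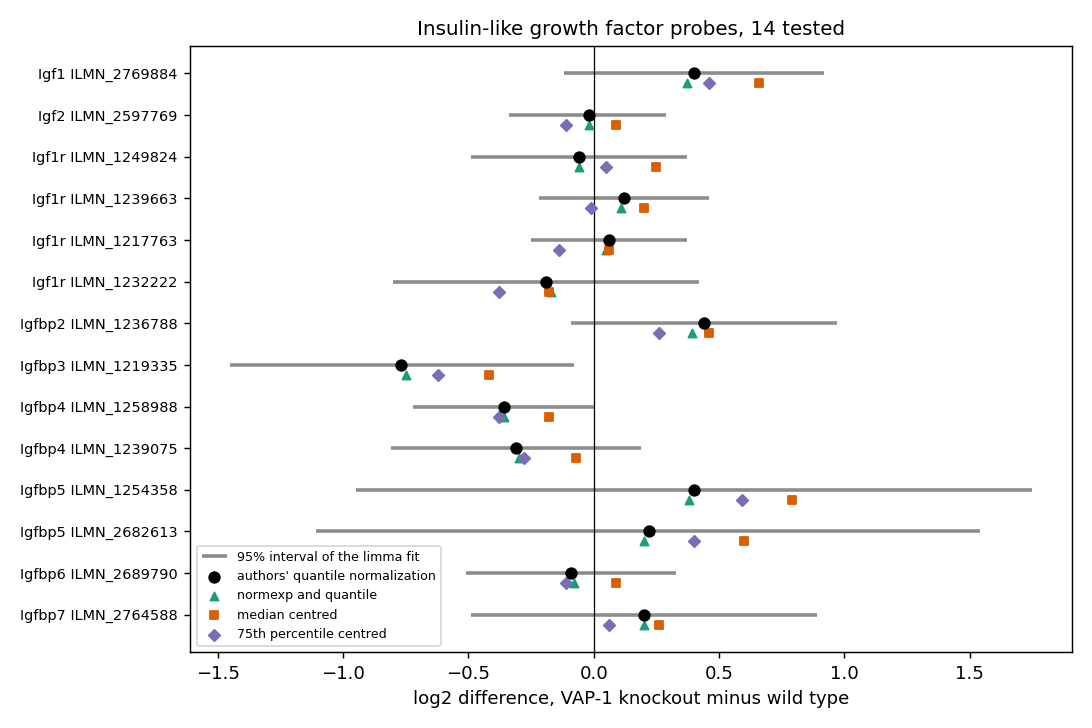
Log2 difference (x axis, VAP-1 knockout minus wild type) of the 14 tested family probes (y axis), with black points for the authors' quantile normalization and grey bars for the 95% interval of the limma fit. Coloured symbols give the same difference under the other scalings. Igfbp3 and Igfbp4 stayed below 0 under each of these scalings, Igf1, Igfbp2 and Igfbp5 above 0, and Igf2, Igfbp6 and 3 of the 4 Igf1r probes changed side.

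**Figure D3:**
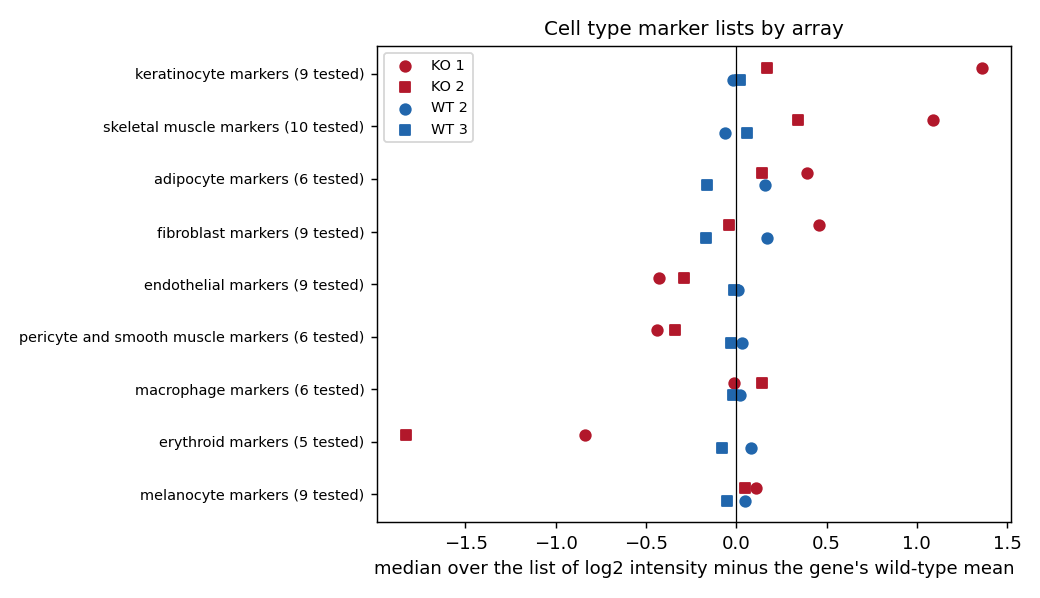
Median over each list of tested cell type markers (y axis) of log2 intensity minus the gene's wild-type mean (x axis), per tumour. Red symbols are knockout and blue symbols wild-type tumours, and the wild-type values mirror each other since they are taken from their own mean. Keratinocyte markers lay 1.36 above the wild-type mean in knockout replicate 1 and 0.17 in replicate 2, and endothelial markers 0.43 and 0.29 below it.

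The rest of the pathway was read from 44 other genes in lists for ligand availability, related receptors and insulin, transcript binding and receptor signalling. Of these 35 were on the array and 32 were tested, at the brightest probe of each gene. After adjustment 0 passed, and at an unadjusted p under 0.05 there were 2 higher and 1 lower (9.38%), against 16.3% of all tested probes. The median difference was 0.00.

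Receptor signalling held these 3 genes, among 17 tested. Pik3r2, which encodes a regulatory subunit of phosphoinositide 3-kinase, read 8.14 and 8.07 in knockout tumours, against 7.57 and 7.25 in wild type. Both knockout values were above both wild-type values, and the difference was 0.69 ± 0.15 (SE, n = 2 each, limma unadjusted p = 0.00739, adjusted p = 0.152). The difference was 0.85 without wild-type replicate 2, 0.53 without wild-type replicate 3 and 1.04 with median centring. Irs1, the docking protein next to the receptor, read 7.42 and 7.31 in the knockout, against 7.09 and 6.97 in wild type (difference 0.34 ± 0.12, adjusted p = 0.282), while its second probe, below the filter level, was lower on both knockout arrays (5.65 and 5.64, against 5.76 and 5.76 in wild type). The adaptor gene Shc1 read 5.96 and 5.95 in the knockout, against 6.39 and 6.20 in wild type (difference -0.34 ± 0.13, adjusted p = 0.296), while another of its probes went the opposite way, at 0.24 ± 0.12. The kinase gene Akt1 and the catalytic subunit gene Pik3ca were below the filter level.

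Genes that set how much ligand is free had 0 of 9 tested members at an unadjusted p under 0.05 and a median of 0.00, and the binding protein gene Igfbp1 of this list was below the filter level. Adam12 and Adam9, metalloproteases, differed by 0.31 ± 0.21 and 0.38 ± 0.29, and Stc2, an inhibitor of PAPP-A, by -0.18 ± 0.13 (SE, n = 2 each). On leaving out knockout replicate 2 Adam12 differed by 0.12 and Adam9 by 0.01, and on leaving out knockout replicate 1 by 0.51 and 0.76. Both other Adam12 probes had a lower knockout mean, by -0.15 ± 0.13 and -0.03 ± 0.11. Among 4 related receptor and insulin genes (median -0.07) the insulin gene Ins2 differed by -0.25 ± 0.12, the clearance receptor gene Igf2r by 0.17 ± 0.15 and Insrr by -0.10 ± 0.11. Of the RNA-binding protein genes named for Igf2 messenger RNA, Igf2bp3 read 5.97 and 6.19 in knockout tumours, against 8.12 and 6.54 in wild-type replicates 2 and 3. Wild-type replicate 2 stood apart, the difference was -1.24 ± 0.53 (limma adjusted p = 0.348), and it was -0.46 without wild-type replicate 2 and -2.03 without wild-type replicate 3. Another Igf2bp3 probe, ILMN_1245610, was also highest in wild-type replicate 2 (7.01, against 5.97 in wild-type replicate 3), and the 3 other probes did not show this. Igf2bp1 differed by 0.19 ± 0.20, with overlapping groups.

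**Figure D4:**
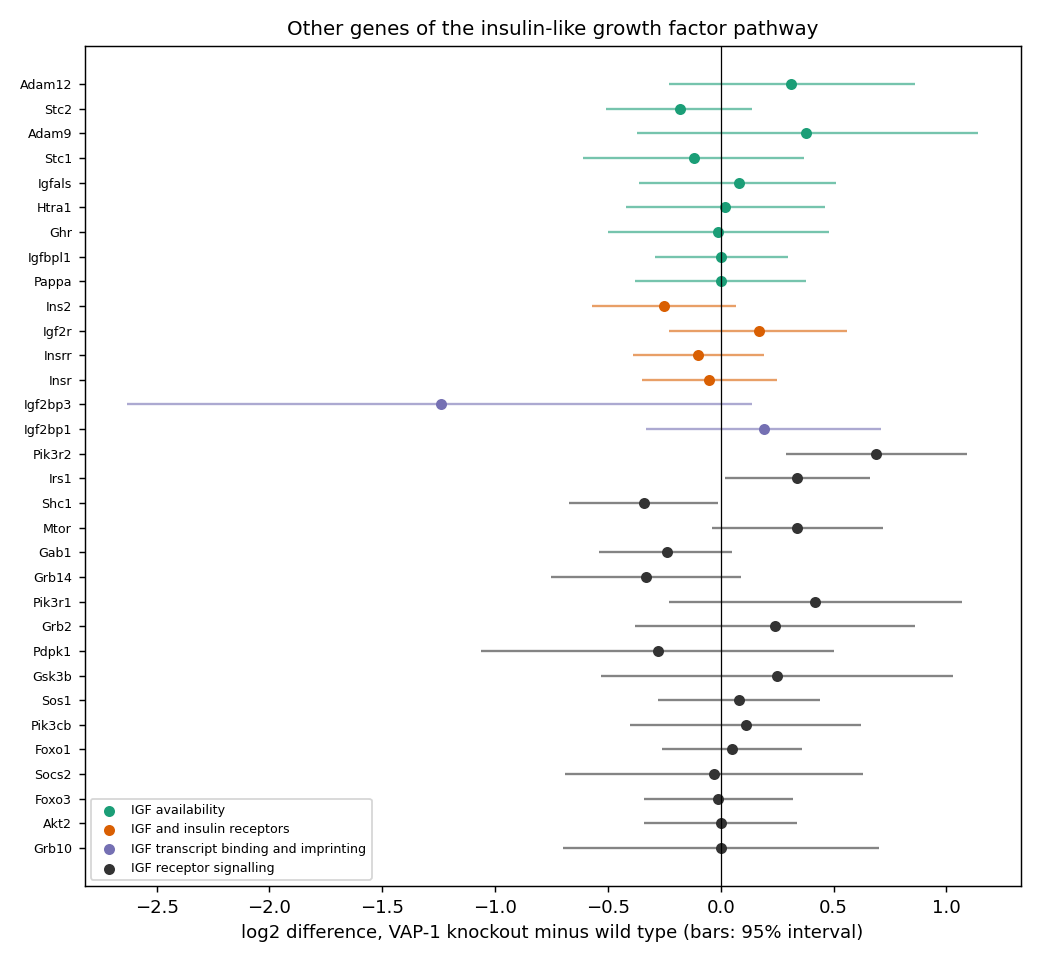
Log2 difference (x axis, VAP-1 knockout minus wild type, bars 95% intervals of the limma fit) of the 32 tested pathway genes outside the family (y axis), coloured by list. The bars of Pik3r2, Irs1 and Shc1 do not cross 0, and Igf2bp3 has the widest bar.

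By Euclidean distance between centred log2 values over the 4 arrays, the genes with the pattern most like that of Igfbp3 were Vdac2 (distance 0.069), Yif1b (0.084) and H4c1 (0.085). Vdac2 read 8.90 and 9.56 in knockout replicates 1 and 2, against 9.99 and 9.90 in wild type. Over 4 arrays such closeness is a description of these tumours.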

How the data were processed

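Per the labels' protocols, RNA came from a Qiagen kit, and the Illumina TotalPrep kit made biotinylated cRNA from 100 ng in 14 h of in vitro transcription. The deposited tables hold bead-array intensity on a linear scale, 1 unnormalized and 1 processed by the authors. The sources used here name no bead summary method, software, slide or scan batch. The processed columns share 1 distribution and equal the linear-scale quantile normalization of the unnormalized table. The 46632 processed rows were paired to the unnormalized rows through their 4 values (all matched within 0.001 on the log2 scale). Gene symbols came from the platform annotation, with 29976 probes of 1 symbol, 10 of several and 16646 of none.

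Log2 was taken of the authors' deposited processed values with no pseudocount. limma 3.58.1 in R 4.3.3 (lmFit, eBayes, two-sided, Benjamini-Hochberg over 27979 probes, threshold 0.05, 2 residual and 2.71 prior degrees of freedom) compared 2 knockout with 2 wild-type tumours. An exact permutation test of 2 against 2 cannot go below 0.333. Only 4 arrays limit the precision. Labels state separate mice. The fit was tested on simulated data. Family statistics are given for the brightest probe and every other probe, and for pathway lists for the 3 genes of smallest p per list at the brightest probe. The pattern most alike was sought for the family gene of largest difference. Cell type lists covered keratinocyte, skeletal muscle, adipocyte, fibroblast, endothelial, pericyte and smooth muscle, macrophage, erythroid and melanocyte markers. The genes and lists were chosen with earlier results of these data known, so their counts beside all tested probes are descriptions. Alternatives were normexp with offset 50, median and 75th percentile centring, other filters, a trended robust prior and leaving out each tumour. Python 3.11.15 made figures and motif searches.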

Additional observations from a re-analysis of the deposited data

How the results depend on the processing

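No paired analysis was possible because the groups share only replicate number 2 in the labels. Family probes at an unadjusted p under 0.05 were 2, and 1 with median centring, 0 with 75th percentile centring, 1 of 11 with the filter at the 60th percentile, and 1 to 4 when a tumour was left out (1 without knockout replicate 1, 4 without wild-type replicate 2). Over the whole table limma called 0 probes, 4 with a trended robust prior, and 0 to 2082 when a tumour was left out (2082 without wild-type replicate 2 and 1193 without wild-type replicate 3, where the closer knockout pair sets the spread). Probes at an unadjusted p under 0.05 ranged from 1716 to 7025 on leaving out a tumour. With all 4 tumours in the main fit, 56.8% of the probes at such a p were higher in the knockout, and 96.8% with median centring. With 75th percentile centring the median of all tested probes was -0.139, against -0.023, and relative to that shift Igfbp3 was at -0.48, Igfbp4 at -0.24 and -0.14 and Igf1 at 0.60. Tested probes were counted as kept by direction and side of the threshold, and untested ones by closeness to the main value. The other filters and the trended prior use the same values, so in those settings no difference could change sign. Of 160 family values under alternatives 140 were counted as kept, 16 tested ones changed sign and 2 untested ones moved. The 2 Igfbp5 probes without wild-type replicate 2 (1.15 and 0.96) were also not counted as kept. There 1 wild-type tumour is left and the closer knockout pair sets the spread. Those that changed sign were Igf2 (0.09) and Igfbp6 (0.09) with median centring, and Igf1r at ILMN_1249824 (0.25 with median, 0.05 with 75th percentile centring), ILMN_1239663 (-0.01) and ILMN_1217763 (-0.14) with 75th percentile centring, as did the 2 untested Igfbp7 probes ILMN_2634286 (-0.11, against 0.11) and ILMN_2447512 (-0.14, against 0.08). On leaving out a tumour, ranges that crossed 0 were -0.08 to 0.04 for Igf2, -0.22 to 0.09 and -0.50 to 0.13 for Igf1r (ILMN_1249824 and ILMN_1232222), -0.35 to 1.15 and -0.53 to 0.96 for Igfbp5, -0.25 to 0.07 for Igfbp6, -0.08 to 0.49 for Igfbp7 and -0.03 to 0.41 for Igf2bp1. The cause of these changes was not tested. Igf2, Igfbp2, 3 Igf1r probes and 2 Igfbp7 probes lie close to background, which limits what a difference there can show. The same holds for the pathway genes Shc1, Ins2, Insrr and Stc2.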

Other observations

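Erythroid markers (5 on the array, all tested) summed to 34980 and 19957 in knockout tumours, against 70980 and 65384 in wild type. Of these 4 were lower at a limma unadjusted p under 0.05 (7.05% of all tested probes were), and 0 passed after adjustment. The other, Slc4a1, differed by -0.12 with overlapping groups. The list was chosen with earlier results of these data known, so its count beside all tested probes is a description. Adipocyte markers (8 on the array, 6 tested, with Fabp4 and Plin1 below the filter level) summed to 2389 and 1408 in the knockout, against 1418 and 1093 in wild type.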
